A study of Mus musculus with 4 samples.

Results

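The Slc25 family, the carriers that move metabolites across the inner mitochondrial membrane, was followed in mouse ESCs during the change from serum/LIF to F/A medium, with and without Cripto. Members were all protein-coding genes whose symbol is Slc25a followed by a number, and 39 of the 15462 genes in the normalized table met this rule. The raw count table held 44 such genes, of which Slc25a2, Slc25a21, Slc25a34, Slc25a41 and Slc25a45 did not pass the authors' filter on low expression and had at most 17 counts in any library.

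R1 ESCs of the 129/Sv strain, either wild type (WT) or knocked out for Cripto (Cripto KO), gave the 4 cultures. Each genotype was grown in serum/LIF, where LIF is the cytokine that maintains naive ESCs, or seeded at low density in N2B27 and kept for 6 days with bFGF and Activin A at 20 ng/ml (F/A), the medium used to derive epiblast stem cells (EpiSCs). RNA of each culture was sequenced as 1 library, so no value has a replicate error, no test between conditions was run, and every difference is between single cultures. The study worked with more than 1 Cripto KO clone, and the labels do not name the clone behind these libraries.

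Each carrier exchanges or imports a defined group of solutes, such as ADP for ATP, phosphate, carboxylates, amino acids, nucleotides, cofactors or iron. They tie the matrix reactions (oxidative phosphorylation, the citric acid cycle, fatty acid oxidation, heme and iron-sulfur cluster synthesis) to the cytosol, and many occur as pairs of paralogs that differ in tissue distribution. Naive ESCs use both oxidative phosphorylation and glycolysis, whereas EpiSCs are known to rely mainly on glycolysis.

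Library totals ran from 15230856 to 17315442 counts. Cripto itself (Tdgf1) had 18714 counts in WT serum/LIF, 1572 in WT F/A, 945 in Cripto KO serum/LIF and 86 in Cripto KO F/A. All 5 naive markers that passed the filter were at least 2-fold lower in F/A in both genotypes, and 5 of 6 markers of EpiSCs were at least 2-fold higher. The 3 general pluripotency markers (Pou5f1, Sox2 and Nanog), which the EpiSC label implies, had log2 changes from -5.33 to -3.67 in WT cells, and all 5 trophoblast markers that passed were higher. In these bulk libraries, fewer cells of a type and less RNA per cell cannot be told apart. Nearly all counts of Cripto KO F/A are even numbers, so they and the library total of 15740587 were divided by 2 before counting intervals were computed. The counts and totals printed here are undivided.

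Together the 39 carriers took up less of the RNA in F/A. Their summed counts were 43549 in WT serum/LIF, 26162 in WT F/A, 39699 in Cripto KO serum/LIF and 28680 in Cripto KO F/A. This corresponds to 0.252%, 0.172%, 0.244% and 0.182% of the respective libraries. The summed share in F/A was 0.683 of that in serum/LIF in WT cells (95% counting interval 0.673 to 0.694) and 0.746 of it in Cripto KO cells (0.732 to 0.761). On normalized values, the log2 ratio of the sums was -0.62 in WT cells and -0.44 in Cripto KO cells. The median member had a log2 change of -0.36 in WT cells, less shifted than the sum. In Cripto KO cells the median was -0.41, close to the sum. Over all genes the medians were -0.08 and -0.07. The WT median was -0.12 when 2 genes known by older names, Mcart1 and Mcart6, were counted as members. Counting intervals, here and below, are Clopper-Pearson intervals of raw counts scaled by library totals and cover counting error only, while folds and log2 changes are ratios of the authors' quantile-normalized values, so a fold can lie slightly outside its interval.

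By median transcript length, Slc25a36, Slc25a5, Slc25a3 and Slc25a39 were among the 5 highest carriers in every library, and Slc25a4 joined them in F/A only. Per kilobase of the median annotated transcript, the 5 leading members were Slc25a36, Slc25a5, Slc25a3, Slc25a39 and Slc25a4, with mean levels over the 4 libraries of 399.7, 291.1, 221.8, 200.3 and 109.3 CPM per kb (CPM, counts scaled to the library total). Slc25a4 was at rank 7 in WT serum/LIF, 4 in WT F/A, 10 in Cripto KO serum/LIF and 3 in Cripto KO F/A. The same 5 genes had the highest means when the longest annotated transcript was used. Slc25a5 was then at rank 1 with 232.2 and Slc25a36 at rank 4 with 89.1. By that length, Slc25a36 in Cripto KO F/A had 35.86 CPM per kb, under Slc25a11 (53.99) and Slc25a1 (43.84). Slc25a4 in WT serum/LIF had 55.74, above Slc25a11 (47.39). The order among these genes, and their place among the 5 highest of a single library, thus depend on the transcript model. By median length, the level of Slc25a36 in WT serum/LIF was 1.33 times that of Slc25a5 (1.29 to 1.37). The levels of Slc25a11 and Slc25a1, ranks 5 and 6 in that library, were not separated beyond counting error. In WT F/A the levels of Slc25a3 and Slc25a5, ranks 2 and 3, were not separated either. At the other end, Slc25a18, Slc25a29, Slc25a43, Slc25a47 and Slc25a48 stayed under 70 counts in every library.

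**Figure D1:**
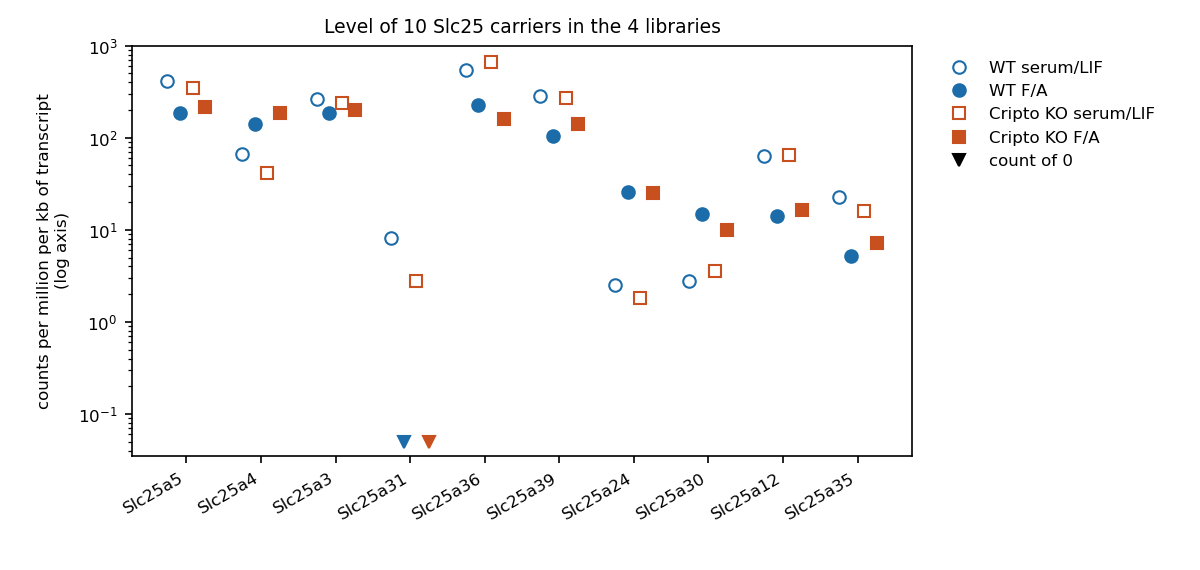
Level of 10 carriers in CPM per kb of the median annotated transcript (log axis), with open symbols for serum/LIF, filled symbols for F/A, circles for WT and squares for Cripto KO, and 1 library per point. Slc25a4 and Slc25a24 were higher in both F/A libraries than in both serum/LIF libraries, Slc25a36 and Slc25a39 were lower, and Slc25a31 had a count of 0 in both F/A libraries, drawn as a triangle at the foot of the axis.

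A short sequence upstream of the start is shown for the 5 members that carry the palindrome CACGTG (an E-box, the same on both strands) in the 250 bases before to 50 bases after an annotated start and that were at least 2-fold changed in at least 1 transition, because they include members that moved in opposite directions. Each stretch has 40 bases, reads 5′ to 3′ on the gene's strand, comes from RefSeq on the build GRCm38.p6, and has the matches in capitals. In Slc25a31 the first capitals are GCATGCGC, the reverse complement of the NRF1 core GCGCATGC.
Slc25a31, chr3:40708753-40708792, plus strand, 118 to 79 bases before the start: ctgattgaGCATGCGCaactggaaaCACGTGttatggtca
Slc25a36, chr9:97111206-97111245, minus strand, 204 to 165 bases before the start: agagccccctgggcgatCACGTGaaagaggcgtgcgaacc
Slc25a33, chr4:149774268-149774307, minus strand, 40 to 1 bases before the start: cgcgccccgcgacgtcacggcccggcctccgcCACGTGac
Slc25a13, chr6:6217276-6217315, minus strand, 142 to 103 bases before the start: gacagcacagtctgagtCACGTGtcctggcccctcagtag
Slc25a14, chrX:48623377-48623416, plus strand, 71 to 32 bases before the first annotated start: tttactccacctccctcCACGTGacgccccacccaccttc

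Promoters were found for 31 of the 39 members, with 39 annotated starts among them. The E-box stood in the promoters of 7 members (Slc25a1, Slc25a13, Slc25a14, Slc25a15, Slc25a31, Slc25a33 and Slc25a36), or 20.5% of the family's starts, beside 7.15% of all 32851 starts. The same site of Slc25a14 lies 54 bases before the first annotated start and 184 before another, and it counts for both starts. In the transition to F/A, Slc25a31, Slc25a36, Slc25a33 and Slc25a13 were lower in at least 1 genotype, Slc25a13 only in WT cells and exactly at the threshold. Slc25a14 was higher in both, and Slc25a1 and Slc25a15 passed in neither. The sequences shown were picked by their change, so these directions give no share. In the family 13 members were lower and 4 higher in WT cells, beside 21.0% and 22.1% of all genes. In Cripto KO cells 10 were lower and 7 higher, beside 19.4% and 19.8%. The letters CCGGAAG, an ETS motif, or their reverse complement stood in the promoters of 6 members (Slc25a3, Slc25a4, Slc25a17, Slc25a20, Slc25a25 and Slc25a38), or 15.4% of the family's starts, beside 8.86% of all starts. The NRF1 core was found in 1 member, beside 2.71% of all starts. The ERR motif TCAAGGTCA was found in none of these windows, beside 0.423% of all starts. These are matches of letters only and no binding was measured.

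The first question was how the carriers change when WT cells pass from serum/LIF to F/A. In WT cells 4 members were at least 2-fold higher in F/A, where 22.1% of all genes were, and 13 members were at least 2-fold lower, where 21.0% of all genes were. Relative to a running median of all genes over transcript length, the WT counts were 8 higher, with Slc25a4 (1.13), Slc25a17 (1.04), Slc25a25 (1.29) and Slc25a47 (1.03) added, and 10 lower, with Slc25a5, Slc25a13 and Slc25a38 lost. The shares of all genes in this paragraph are for changes without this length correction. In Cripto KO cells 7 members were higher, against 19.8% of all genes, and 10 were lower, against 19.4%. In percent of the 39 members these counts are 10.3% higher and 33.3% lower in WT cells, and 17.9% higher and 25.6% lower in Cripto KO cells. The 4 members that were higher in both genotypes were Slc25a14, Slc25a18, Slc25a24 and Slc25a30, and the 8 that were lower in both included Slc25a12, Slc25a20, Slc25a31, Slc25a35, Slc25a36, Slc25a42 and Slc25a48. Of 15432 genes, 2554 were higher in both and 2339 lower in both. No member was at least 2-fold higher in 1 genotype and at least 2-fold lower in the other, and of all genes only 30 were.

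**Figure D2:**
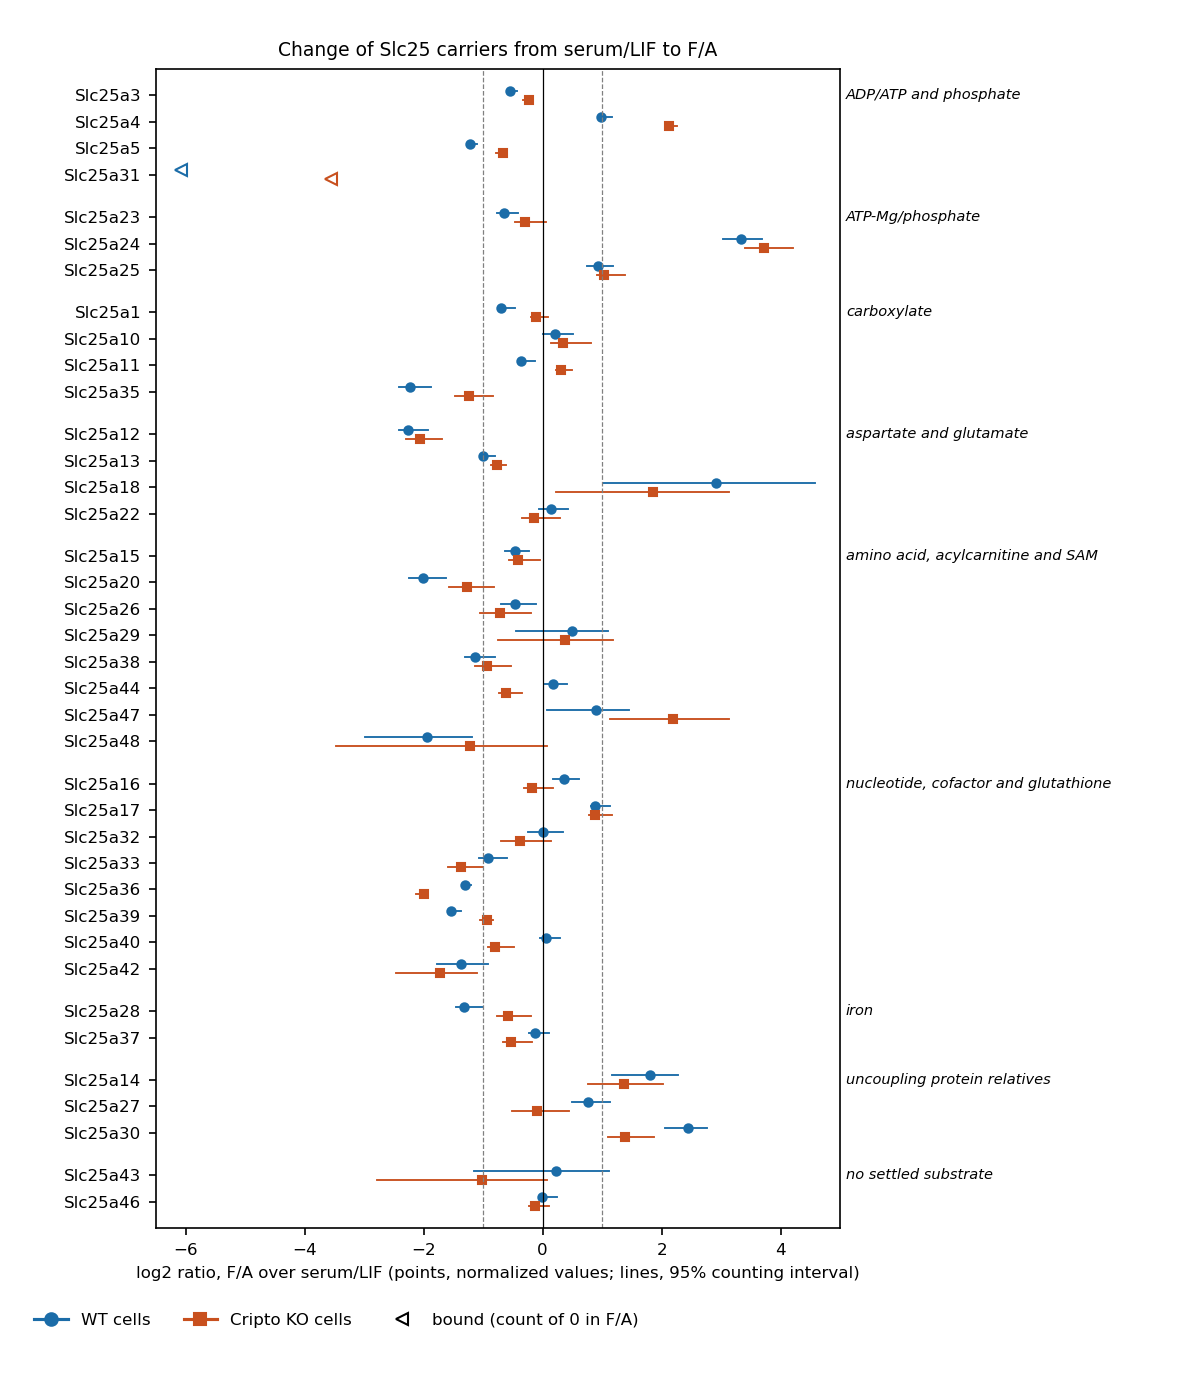
Log2 ratio of F/A over serum/LIF for the carriers, grouped by substrate, in WT (circles) and Cripto KO (squares) cells, with lines for the 95% counting interval, dashed lines at a 2-fold change and open triangles for the bound of Slc25a31, whose F/A counts are 0. Slc25a24 is farthest to the right in both genotypes and the intervals are widest for the members with few counts, Slc25a18, Slc25a43, Slc25a47 and Slc25a48.

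Among the ADP/ATP carriers, which exchange matrix ATP for cytosolic ADP, the 3 paralogs moved apart. Slc25a4 (Ant1, the form of heart and muscle) had 1858 counts in WT serum/LIF, 3468 in WT F/A, 1085 in Cripto KO serum/LIF and 4684 in Cripto KO F/A. Both F/A libraries were above both serum/LIF libraries, and the range was wider in Cripto KO cells. Slc25a4 was 1.98-fold higher in F/A in WT cells, just under the 2-fold threshold (counting interval 2.005 to 2.25 on library totals), and 4.34-fold higher in Cripto KO cells (4.15 to 4.80). The log2 change in Cripto KO cells exceeded that in WT cells by 1.13 (counting SE 0.07).

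Slc25a5 (Ant2, the form of proliferating cells) went the other way, with 7070 counts in WT serum/LIF, 2784 in WT F/A, 5641 in Cripto KO serum/LIF and 3362 in Cripto KO F/A. It was 2.34-fold lower in F/A in WT cells and 1.59-fold lower in Cripto KO cells (1.54 to 1.72), so that it passed the threshold in WT cells alone. The log2 changes differed by 0.56 (counting SE 0.05). Its WT call was lost when log2 changes were taken relative to genes of like transcript length (-0.81). Per kilobase, the level of Slc25a5 was 6.16 times that of Slc25a4 in WT serum/LIF (5.85 to 6.48) and 8.41 times in Cripto KO serum/LIF (7.88 to 8.98). In F/A it was 1.30 times in WT cells (1.24 to 1.37) and 1.16 times in Cripto KO cells (1.09 to 1.24), so the 2 forms stood close to parity. The ratio of Slc25a4 to Slc25a5 rose 4.74-fold in WT cells (4.41 to 5.09) and 7.24-fold in Cripto KO cells (6.62 to 7.93).

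Slc25a31 (Ant4, the form of male germ cells) was seen in serum/LIF alone, with 231 counts in WT and 73 in Cripto KO cells, and had 0 counts in both F/A libraries. Taken against the detection limit of 3 counts per library, or 6 in Cripto KO F/A, it was at least 67.7-fold lower in F/A in WT cells and at least 11.8-fold lower in Cripto KO cells. In serum/LIF it was 2.85-fold lower in Cripto KO than in WT cells (2.27 to 3.92). The germ cell marker Dazl, an RNA-binding protein of germ cells, had 541, 0, 147 and 0 counts in WT serum/LIF, WT F/A, Cripto KO serum/LIF and Cripto KO F/A. In both genotypes all 3 germ cell markers (Dazl, Ddx4 and Sycp3) were at least 2-fold lower in F/A. Their summed level was 85.5 and 94.4 CPM in serum/LIF and 2.56 and 1.78 in F/A, in WT and Cripto KO cells respectively. In serum/LIF Ddx4 had 498 counts in WT and 493 in Cripto KO cells, and Sycp3 had 441 and 895. Their part in the values of Slc25a31 was not tested.

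The phosphate carrier Slc25a3, which supplies phosphate for ATP synthesis, had 6202, 3900, 5294 and 4312 counts in WT serum/LIF, WT F/A, Cripto KO serum/LIF and Cripto KO F/A. It was 1.46-fold lower in F/A in WT cells and 1.17-fold lower in Cripto KO cells (1.13 to 1.25). Neither passed the threshold.

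The ATP-Mg/phosphate carriers, which set the adenine nucleotide pool of the matrix, held the largest rise of the family. Slc25a24 had 89 counts in WT serum/LIF, 800 in WT F/A, 61 in Cripto KO serum/LIF and 818 in Cripto KO F/A. The 2 F/A libraries were close to each other and far above both serum/LIF libraries, and Slc25a24 was 10.1-fold higher in F/A in WT cells (8.20 to 12.9) and 13.2-fold higher in Cripto KO cells (10.6 to 18.4). Slc25a25, with 278, 475, 291 and 624 counts in the same order of libraries, was 1.91-fold higher in WT cells (1.67 to 2.26) and 2.05-fold higher in Cripto KO cells (1.88 to 2.61). Slc25a23, which had 719, 420, 409 and 346 counts, was 1.58-fold lower in WT cells (1.33 to 1.70) and 1.23-fold lower in Cripto KO cells (0.956 to 1.38), an interval that includes 1. The ratio of Slc25a24 to Slc25a23 thus rose 15.4-fold in WT cells (12.0 to 19.8) and 15.8-fold in Cripto KO cells (11.5 to 21.9). The remaining member of this group, Slc25a41, had between 2 and 6 counts per library.

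Of the members listed with the carboxylate carriers, Slc25a35 alone passed the threshold. This member, whose substrate is not settled, had 717 counts in WT serum/LIF, 143 in WT F/A, 472 in Cripto KO serum/LIF and 206 in Cripto KO F/A. It was 4.71-fold lower in F/A in WT cells (3.68 to 5.32) and 2.37-fold lower in Cripto KO cells (1.79 to 2.77), and the 2 log2 changes differed by 0.99 (counting SE 0.21), just under the threshold of 1. The citrate carrier Slc25a1, which exports citrate for lipid synthesis, had 1330, 778, 1237 and 1158 counts, so that WT F/A was the low library. It was 1.62-fold lower in F/A in WT cells and 1.08-fold lower in Cripto KO cells, where the interval includes 1 (0.936 to 1.14). The oxoglutarate/malate carrier Slc25a11, part of the malate-aspartate shuttle, had 1404, 1039, 1173 and 1454 counts, and its log2 change was -0.36 in WT and 0.30 in Cripto KO cells. The dicarboxylate carrier Slc25a10 had log2 changes of 0.21 and 0.35. Slc25a21 had 10 counts in WT F/A and 6 in Cripto KO F/A and 0 in both serum/LIF libraries, and Slc25a34 had 3 and 5 counts in the serum/LIF libraries of WT and Cripto KO cells and 0 in both F/A libraries.

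The 2 aspartate/glutamate carriers of the malate-aspartate shuttle were both lower in F/A, Slc25a12 more so. Slc25a12 (aralar) had 876 counts in WT serum/LIF, 171 in WT F/A, 843 in Cripto KO serum/LIF and 206 in Cripto KO F/A, so that the genotypes lay close together in each medium. It was 4.83-fold lower in WT cells (3.82 to 5.34) and 4.19-fold lower in Cripto KO cells (3.23 to 4.91). Slc25a13 (citrin), with 2552, 1204, 2161 and 1248 counts, was exactly at the threshold in WT cells, 2-fold lower, and lost that call under 5 of the alternatives. In Cripto KO cells it was 1.71-fold lower (1.53 to 1.83). The ratio of Slc25a12 to Slc25a13 fell by 1.27 on the log2 scale in WT cells (counting SE 0.13) and by 1.24 in Cripto KO cells (counting SE 0.16). Of the glutamate carriers, Slc25a22 had log2 changes of 0.14 and -0.14, and Slc25a18 had only 4, 21, 8 and 24 counts, with intervals of 2.01 to 23.9 and 1.17 to 8.74 for its folds of 7.5 and 3.61.

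Among the carriers of amino acids, acylcarnitines and S-adenosylmethionine (SAM), 8 of 10 passed the filter, with 3 lower in WT cells and, in Cripto KO cells, 1 higher and 2 lower. The shares of all genes were 22.1% higher and 21.0% lower in WT cells, and 19.8% and 19.4% in Cripto KO cells. Slc25a20, the carnitine/acylcarnitine carrier that brings fatty acids to oxidation, had 461 counts in WT serum/LIF, 106 in WT F/A, 329 in Cripto KO serum/LIF and 140 in Cripto KO F/A. It was 4.05-fold lower in WT cells (3.09 to 4.77) and 2.41-fold lower in Cripto KO cells (1.75 to 2.99). The glycine carrier Slc25a38, needed for heme synthesis, had 443, 188, 415 and 226 counts and was 2.19-fold lower in WT cells (1.74 to 2.47) and 1.90-fold lower in Cripto KO cells (1.44 to 2.21), and its WT call was lost relative to genes of like length (-0.78). Slc25a44, which takes up branched-chain amino acids, stood out in Cripto KO serum/LIF with 879 counts, while the other libraries had 500 (WT serum/LIF), 515 (WT F/A) and 588 (Cripto KO F/A).

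In the same group, the ornithine carrier Slc25a15 (log2 changes -0.47 and -0.41), the SAM carrier Slc25a26 (-0.46 and -0.72) and the basic amino acid carrier Slc25a29 (0.49 and 0.37) did not pass in either genotype. Slc25a47 had 31, 46, 14 and 58 counts and was 4.55-fold higher in F/A in Cripto KO cells (2.19 to 8.77). Slc25a48 had 65, 14, 23 and 8 counts and was 3.85-fold lower in WT cells (2.27 to 7.88), while its interval in Cripto KO cells included 1 (0.951 to 11.1). Slc25a45 had 17 counts in Cripto KO serum/LIF and at most 6 elsewhere, and the ornithine carrier Slc25a2 at most 6.

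The nucleotide, cofactor and glutathione carriers all passed the filter, and in each genotype 0 of 9 were at least 2-fold higher and 4 were at least 2-fold lower. Of all genes, 22.1% were higher and 21.0% lower in WT cells, and 19.8% and 19.4% in Cripto KO cells. Slc25a36, a pyrimidine nucleotide carrier, had 8500 counts in WT serum/LIF, 3117 in WT F/A, 9595 in Cripto KO serum/LIF and 2264 in Cripto KO F/A. It was 2.47-fold lower in F/A in WT cells and 3.99-fold lower in Cripto KO cells (3.86 to 4.37), with a difference of -0.69 between the log2 changes (counting SE 0.05). Its paralog Slc25a33, with 452, 223, 584 and 230 counts, was 1.89-fold lower in WT cells (1.51 to 2.10) and 2.60-fold lower in Cripto KO cells (2.01 to 3.03). Both paralogs were therefore highest in Cripto KO serum/LIF.

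Slc25a39, required for the import of glutathione into mitochondria, had 3795 counts in WT serum/LIF, 1209 in WT F/A, 3379 in Cripto KO serum/LIF and 1704 in Cripto KO F/A. It was 2.92-fold lower in F/A in WT cells and 1.91-fold lower in Cripto KO cells (1.78 to 2.07), and the log2 changes differed by 0.61 (counting SE 0.07). Its paralog Slc25a40 had 599, 573, 772 and 462 counts, with log2 changes of 0.05 in WT and -0.80 in Cripto KO cells. The ratio of Slc25a39 to Slc25a40 accordingly fell 3.003-fold in WT cells (2.63 to 3.43) and 1.19-fold in Cripto KO cells (1.01 to 1.40).

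Slc25a42, a coenzyme A carrier, had 187, 65, 153 and 44 counts in WT serum/LIF, WT F/A, Cripto KO serum/LIF and Cripto KO F/A and was 2.60-fold (1.90 to 3.41) and 3.33-fold lower (2.15 to 5.53). The peroxisomal carrier Slc25a17 was the member of this group farthest in the other direction, with 479, 826, 455 and 862 counts and log2 changes of 0.88 and 0.87. Slc25a16 (0.36 and -0.19) and the folate carrier Slc25a32 (0.00 and -0.38) did not pass in either genotype.

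The 2 mitoferrins import iron for heme and iron-sulfur clusters. Slc25a28 (mitoferrin 2) had 579 counts in WT serum/LIF, 217 in WT F/A, 412 in Cripto KO serum/LIF and 286 in Cripto KO F/A. It was 2.49-fold lower in WT cells (2.005 to 2.76) and 1.49-fold lower in Cripto KO cells (1.15 to 1.70). Slc25a37 (mitoferrin 1, the form of erythroid cells) had 623, 527, 541 and 390 counts, with log2 changes of -0.12 and -0.53. The ratio of Slc25a28 to Slc25a37 fell 2.26-fold in WT cells (1.86 to 2.74) and by 1.04-fold in Cripto KO cells, where the interval includes 1 (0.808 to 1.34). Of 4 erythroid markers, the globins Hbb-bh1 and Hba-x had 0 counts in every library, and the list summed to at most 2.48 CPM.

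The relatives of the uncoupling proteins were higher in F/A or little changed. Slc25a30 (Kmcp1) had 83 counts in WT serum/LIF, 388 in WT F/A, 100 in Cripto KO serum/LIF and 270 in Cripto KO F/A. It was 5.42-fold higher in WT cells (4.18 to 6.82) and 2.61-fold higher in Cripto KO cells (2.14 to 3.65), and the log2 change in Cripto KO cells was smaller by 1.06 (counting SE 0.26). Slc25a14 (Ucp5), with 39, 112, 41 and 104 counts, was 3.51-fold (2.25 to 4.83) and 2.58-fold higher (1.71 to 4.05). Slc25a27 (Ucp4), a member best known from brain, had 136, 211, 116 and 110 counts, so that WT F/A was the high library. Its log2 change was 0.77 in WT and -0.10 in Cripto KO cells. Of the members listed under no settled substrate, the outer membrane protein Slc25a46 had between 812 and 872 counts in every library, and Slc25a43 had 16, 14, 29 and 12.

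**Figure D3:**
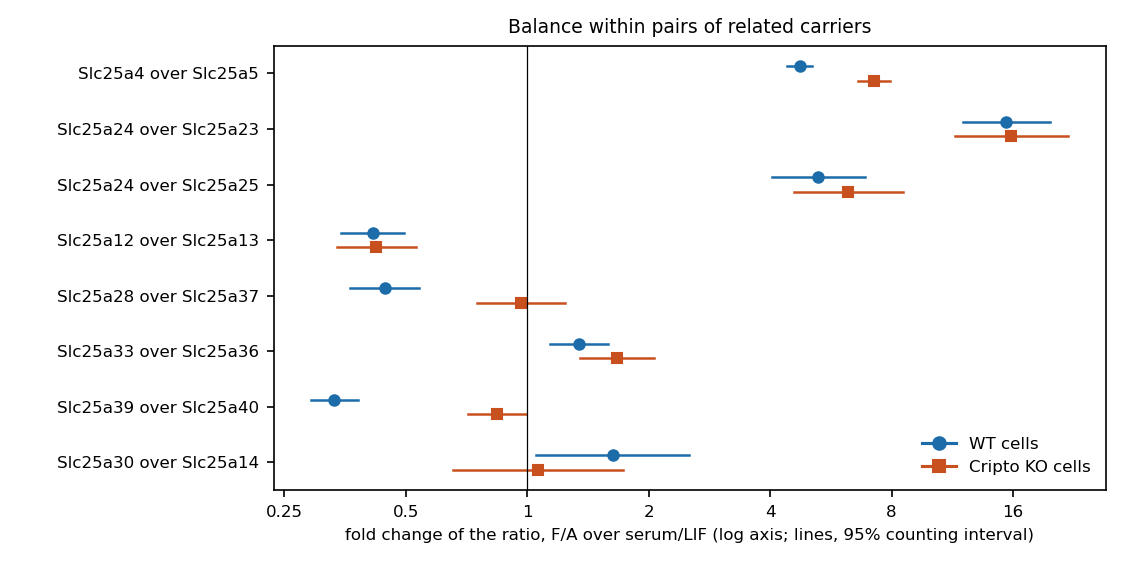
Fold change, F/A over serum/LIF, of the ratio between the members of 8 pairs of related carriers, in WT (circles) and Cripto KO (squares) cells, on a log axis with 95% counting intervals. The intervals of the 2 genotypes do not overlap for Slc25a4 over Slc25a5, Slc25a28 over Slc25a37 and Slc25a39 over Slc25a40, and the ratio of Slc25a24 to Slc25a23 rose by over 15-fold in both.

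The second question was whether the 2 genotypes differ in their transition. Of the 39 members, 31 had log2 changes of the same sign in both genotypes, as did 12830 of 15432 genes, and 7 had opposite signs, while Slc25a32 had the same normalized value in both WT libraries. For the difference between the log2 changes, 38 members could be compared. Slc25a4 and Slc25a47 were above 1, where 6.41% of all genes were, and Slc25a18, Slc25a30 and Slc25a43 were below -1, where 8.78% of all genes were. With 100 or more counts in the higher library, only Slc25a4 and Slc25a30 were among these, and their intervals for the difference were 0.999 to 1.26 and -1.56 to -0.55. The value of Slc25a30 was -0.93 with total-count scaling, -0.91 with TMM factors and -0.93 with DESeq2 size factors, short of the threshold, and Slc25a35 passed it with TMM factors (1.01). The median difference over the members was 0.03, and -0.01 over all genes.

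The third question was how Cripto KO cells compare with WT cells in the same medium. In F/A, 0 of 38 members were at least 2-fold higher in Cripto KO cells, where 4.05% of all genes were, and 0 were at least 2-fold lower, where 5.39% of all genes were. The log2 ratios ran from -0.93 (Slc25a27) to 0.56 (Slc25a1), with a median of 0.02. The counting interval excluded 1 for 16 of the 38 members. This interval covers counting error only and is narrower at higher counts. The shares of all genes above are for the 2-fold rule and give no background for this count. The cultures compared differ in cell state markers, since 4 of 6 EpiSC markers were at least 2-fold lower in Cripto KO F/A than in WT F/A, with a median log2 ratio of -1.61 and summed levels of 503.3 and 1040 CPM. Their part in the values of the carriers was not tested. Slc25a27 was 1.91-fold lower in Cripto KO cells (1.47 to 2.72), Slc25a30 was 1.498-fold lower (1.22 to 1.82) and Slc25a36 was 1.37-fold lower (1.33 to 1.52). In the other direction, Slc25a1 was 1.48-fold higher (1.29 to 1.61), Slc25a39 was 1.42-fold higher (1.25 to 1.49) and Slc25a11 was 1.39-fold higher (1.23 to 1.49). Relative to a running median over transcript length, the log2 ratios of Slc25a1, Slc25a39 and Slc25a11 went from 0.56, 0.50 and 0.47 to 0.41, 0.34 and 0.31. Those of Slc25a27, Slc25a30 and Slc25a36 went from -0.93, -0.58 and -0.45 to -0.97, -0.58 and -0.645.

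In serum/LIF, 2 members were at least 2-fold higher in Cripto KO cells, Slc25a18 and Slc25a43, where 2.53% of all genes were, and 2 were at least 2-fold lower, Slc25a31 and Slc25a48, where 2.55% of all genes were. Of these 4, only Slc25a31 had over 100 counts in the higher library, and the interval of Slc25a18 included 1 (0.571 to 9.67). Slc25a44 was 1.89-fold higher in Cripto KO cells (1.67 to 2.09). Slc25a4 was 1.63-fold lower (1.49 to 1.73) and Slc25a23 was 1.63-fold lower (1.46 to 1.87), and neither passed the threshold. The median log2 ratio of the members was -0.08, and 0.00 over all genes.

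**Figure D4:**
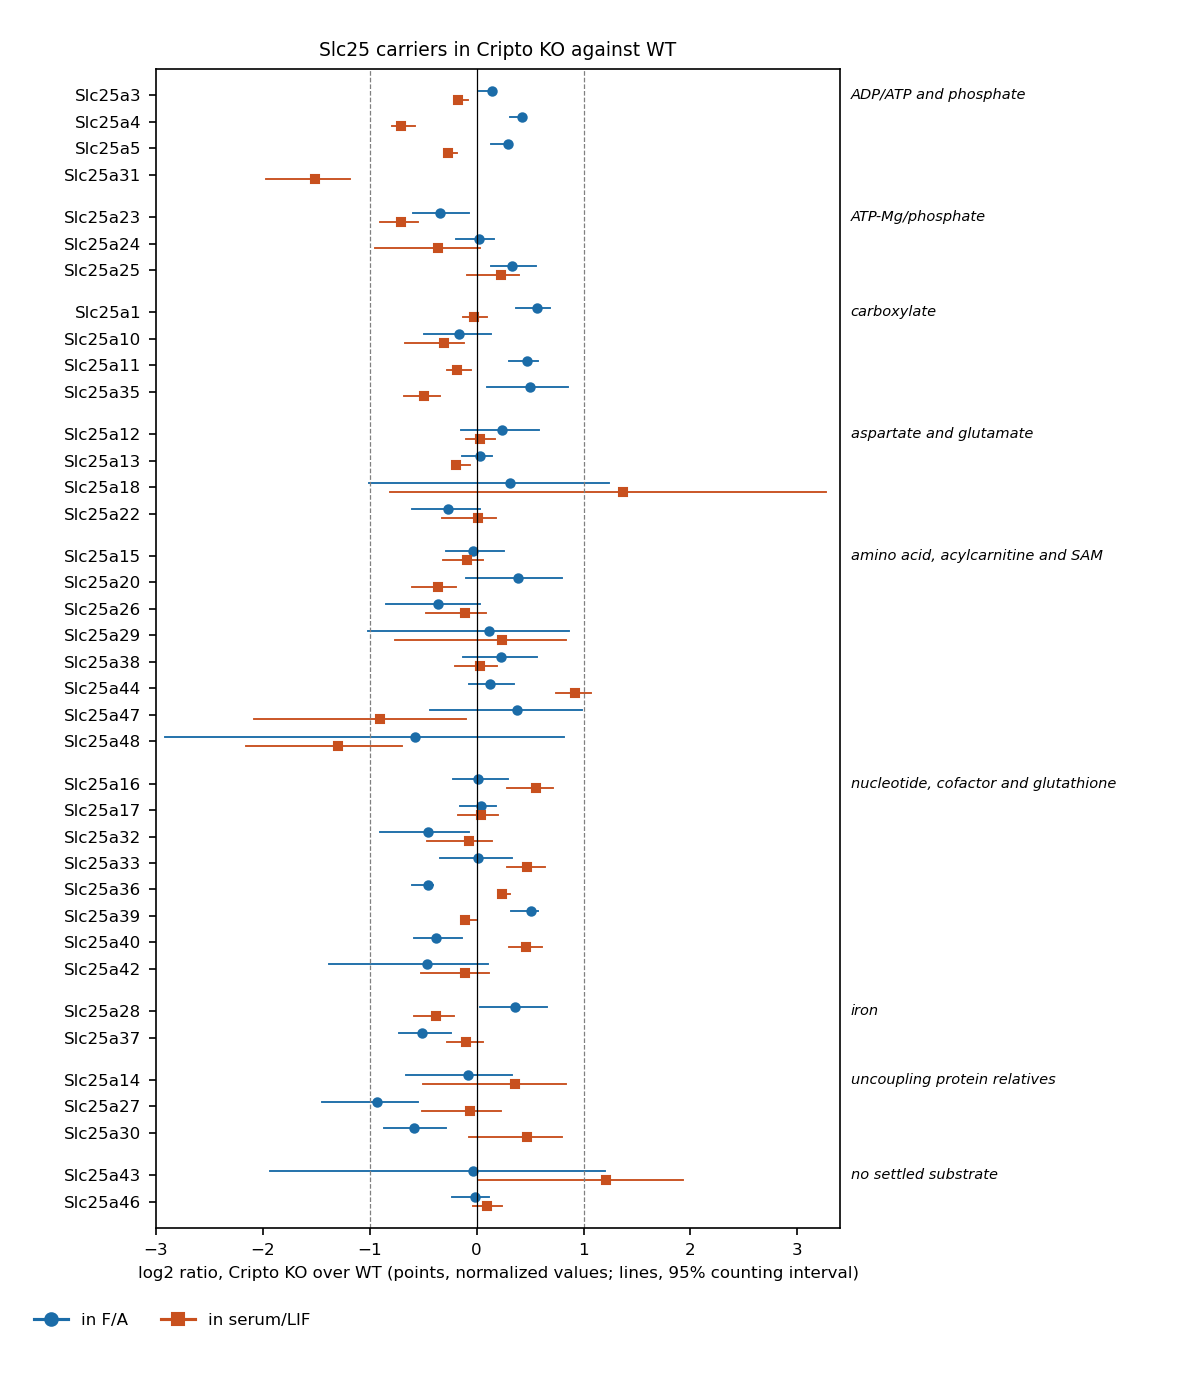
Log2 ratio of Cripto KO over WT for the carriers, grouped by substrate, in F/A (circles) and in serum/LIF (squares), with lines for the 95% counting interval and dashed lines at a 2-fold difference. The values in F/A lie between -0.93 and 0.56, and Slc25a31, with a count of 0 in both F/A libraries, has a value in serum/LIF only.

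Genes that act beside the carriers were taken from lists. Of the import machinery that takes carrier precursors through the outer membrane and into the inner membrane (Tomm and Timm subunits and Agk), 13 of 13 genes passed the filter and 0 were at least 2-fold changed in any comparison. Their median log2 change was -0.57 in WT and -0.07 in Cripto KO cells, and their median ratio of Cripto KO to WT was 0.43 in F/A and -0.06 in serum/LIF, on the log2 scale. Timm22, the channel that inserts carriers into the inner membrane, had 589, 399, 524 and 676 counts in WT serum/LIF, WT F/A, Cripto KO serum/LIF and Cripto KO F/A. The median of the carriers themselves was 0.02 in the comparison of genotypes in F/A. Neither this median nor that of the import genes was taken relative to genes of like transcript length.

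Of 10 relatives and pores, 8 passed the filter. In WT cells 0 were at least 2-fold higher and 3 were lower, Ucp2 (log2 change -1.57) and both subunits of the mitochondrial pyruvate carrier, listed under their older names Brp44l (-1.68) and Brp44 (-1.18). In Cripto KO cells Ucp2 (-1.99) and Brp44l (-1.81) were lower and Mtch1 (1.06), a carrier-like protein of the outer membrane, was higher, while Brp44 had a log2 change of -0.08. Beside these counts, 22.1% of all genes were higher and 21.0% lower in WT cells, and 19.8% and 19.4% in Cripto KO cells. Brp44 had 228 counts in WT serum/LIF, 92 in WT F/A, 154 in Cripto KO serum/LIF and 152 in Cripto KO F/A. The voltage-dependent anion channels Vdac1, Vdac2 and Vdac3 did not pass in any comparison.

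Some members share annotated sequence with a neighbour. The exons of 9 members (among them Slc25a10, Slc25a11, Slc25a23, Slc25a25, Slc25a26, Slc25a33, Slc25a35 and Slc25a46) overlap an exon of a gene on the opposite strand. Whether reads were counted by strand is not given in the sources used here, so the values of these members may hold reads of the neighbour or miss reads that fall on both genes. Markers of other cell types also moved between the libraries. Of 4 fibroblast markers, Col1a1 was 1.54 higher in Cripto KO than in WT cells in F/A on the log2 scale, and the list summed to 67.1 CPM in WT F/A and 149.7 in Cripto KO F/A. The trophoblast markers summed to 214.8 and 246.5, with members in both directions: Cdx2 had 104 counts in WT F/A and 674 in Cripto KO F/A, Hand1 had 196 and 1730, and Eomes had 1963 and 422. The part of either in the values of the carriers was not tested.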

How the data were processed

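The authors aligned paired-end reads to mm9 (NCBIM37) with TopHat2 2.0.13, counted them on Ensembl 67 with HTSeq 0.6.1p1 and deposited raw counts per gene, 1 column per library. The deposited signal is a full quantile normalization of these counts (preprocessCore 1.28.0), filtered with NOISeq 2.8.0 at 1 cpm in RNASeqGUI 0.99.3. Quantile normalization was recomputed from the counts and equalled the deposited values. 0 columns lacked a sample.

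Symbols, lengths (median over annotated transcripts) and overlaps came from the Ensembl 65 annotation of the same build, which named 15424 of 15462 genes. Log2 ratios used the normalized values, with 0 replaced by 0.5. With 1 library per condition, the study's simulation-based probability was not used and genes were called from a 2-fold change on. Intervals (95%, Clopper-Pearson) came from raw counts, with undivided totals of 15230856 to 17315442. For these intervals the counts and the total of Cripto KO F/A were divided by 2. A fold against a count of 0 was computed against the detection limit.

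Every member was named except 1, which is counted but not reported here. Full values were given for members at least 2-fold changed with at least 100 counts, the 5 most abundant and the ADP/ATP group, and values of others were added after they were seen. Members and lists were chosen with earlier results of these data known. Scripts (Python 3.11.15, numpy 2.4.6, pandas 2.3.3, scipy 1.17.1, matplotlib 3.10.9) were tested on simulated data. Alternatives used edgeR 4.0.16 and DESeq2 1.42.0 (R 4.3.3) for scaling factors only.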

Additional observations from a re-analysis of the deposited data

Results flagged for a closer look

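Some carriers moved in opposite directions in groups that share no library, with both counting intervals excluding 1. With 1 library per condition the difference was not tested in any of them. In the transition to F/A, the log2 change of Slc25a11 was -0.36 in WT cells and 0.30 in Cripto KO cells, and that of Slc25a44 was 0.17 and -0.62.

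Between genotypes, 9 carriers had opposite log2 ratios of Cripto KO to WT in F/A and in serum/LIF. Those higher in Cripto KO cells in F/A and lower in serum/LIF were Slc25a3 (0.15 and -0.17), Slc25a4 (0.42 and -0.71), Slc25a5 (0.29 and -0.26), Slc25a11 (0.47 and -0.19), Slc25a28 (0.36 and -0.38), Slc25a35 (0.50 and -0.49) and Slc25a39 (0.50 and -0.11). Those lower in F/A and higher in serum/LIF were Slc25a36 (-0.45 and 0.24) and Slc25a40 (-0.38 and 0.47). All of these ratios are under 2-fold. Over all members, 18 of 38 had the same sign in both media and 20 the opposite sign, and over all genes 6143 of 14697 had the same sign and 8381 the opposite sign. These sign counts do not use the intervals, so they give no matching share for the 9 carriers.

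The 5 carriers outside the filtered table had counts above the detection limit in at least 1 library of the raw table. The highest were 6 counts of Slc25a2 and 10 of Slc25a21, both in WT F/A, 5 of Slc25a34 in Cripto KO serum/LIF, 6 of Slc25a41 in WT serum/LIF and 17 of Slc25a45 in Cripto KO serum/LIF. They were left out of the main comparisons and entered only the alternative with no filter, given below.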

How the results depend on the processing

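Of 135 recomputed counts and medians, 120 stayed within 1.5 times the reported count or within a tolerance around the reported median. This tolerance was the median half-width of the counting intervals of single members, from 0.19 to 0.37 on the log2 scale by comparison. It is no error of the median itself and is a wide limit for it. In serum/LIF, the number of members higher in Cripto KO cells was 1 instead of 2 with total-count scaling, TMM factors and DESeq2 size factors, 0 with 5 added to every value, 0 with a mean of at least 50 raw counts and 4 with no filter, and the number lower was 1 with a mean of at least 50. In F/A, 2 members were lower with no filter instead of 0. For the difference between the transitions, the number below -1 was 1 instead of 3 with total-count scaling, TMM, DESeq2, 5 added and a mean of at least 50, and the number above 1 was 1 instead of 2 with a mean of at least 50. Relative to a running median over transcript length, the members higher in WT F/A were 8 instead of 4.

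Of 744 values of single members, 717 stayed within their counting error, and 0 reversed. This count does not use the 2-fold call, so a value within its counting error could still lose or gain the call. Slc25a13 in WT cells was -0.90 with total-count scaling, -0.92 with TMM and -0.89 with DESeq2, Slc25a30 had a difference of -0.93, -0.91 and -0.93, and Slc25a4 in WT cells rose past the threshold to 1.09, 1.06 and 1.10. Slc25a35 had a difference of 1.01 with TMM. Relative to genes of like length, Slc25a5, Slc25a13 and Slc25a38 in WT cells were at -0.81, -0.99 and -0.78, and Slc25a4 and Slc25a25 rose past the threshold to 1.13 and 1.29. The members' median transcript length was 1582 bases, against 1787 over all genes. No paired analysis was possible because each condition has 1 library, which also leaves no replicate to leave out. Depth limits the members under 100 counts.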

Other observations

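Under older names, 2 further genes that RefSeq lists as Slc25 members were in the normalized table and outside the symbol rule. Mcart1 (Slc25a51, an importer of NAD) had 743 counts in WT serum/LIF, 1037 in WT F/A, 795 in Cripto KO serum/LIF and 1096 in Cripto KO F/A. In the transition to F/A its log2 change was 0.57 in WT and 0.43 in Cripto KO cells. Mcart6 (Slc25a53) had 122, 188, 95 and 198 counts in the same order, with log2 changes of 0.78 and 1.02, so it passed the 2-fold threshold in Cripto KO cells. When they were counted as members, a choice made after seeing the data, this moved the WT median log2 change from -0.36 to -0.12 and the Cripto KO median from -0.41 to -0.38, and the members higher in Cripto KO F/A were 8 instead of 7. Both were higher in both F/A libraries than in both serum/LIF libraries.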
